A study of Mus musculus with 11 samples.

Results

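The genes described are 34 genes of the hypoxia-inducible factor (HIF) pathway among the 36666 genes counted in mouse cerebrum. They were chosen by name, as 10 genes that make up the HIF pathway itself (alpha and beta subunits, oxygen-sensing hydroxylases and Vhl) and 24 genes known to be induced by hypoxia. Glycolytic enzymes, Vegfa, Adm and Slc2a1 were set apart and are mentioned only briefly. RNA was sequenced from the cerebrum of 11 male C57/Bl6 mice aged 1 year. The mutator group held 7 mice that carry the D257A change in both copies of Polg, the gene of the mitochondrial DNA polymerase, which takes away its proofreading. Of the 4 control littermates, 3 were WT/WT and 1 was WT/D257A, so that 1 control also carries a mutant copy. The change is present in every cell of the body and the tissue was taken whole, so that fewer cells of a type and less RNA per cell cannot be told apart.

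HIF is a transcription factor made of an alpha subunit (Hif1a, Epas1 or Hif3a) and a beta subunit (Arnt or Arnt2). In the presence of oxygen the prolyl hydroxylases Egln1, Egln2 and Egln3 mark the alpha subunit, the Vhl protein binds the marked form, and the subunit is degraded, while Hif1an hydroxylates an asparagine and blocks the binding of coactivators. When oxygen falls, the alpha subunit persists and the dimer binds hypoxia response elements near genes of oxygen supply, metabolism, mitochondrial turnover and matrix formation. This control acts mostly on the protein, so the mRNA of an alpha subunit is not a measure of its activity. Some of the target mRNAs, among them Egln3, Bnip3, Ankrd37 and Car9, are commonly read as markers of the response.

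Libraries held from 28249345 gene counts (control mouse 246) to 121182250 (control mouse 205), with 37821243 to 91219204 in the mutator mice. Some libraries stood apart. Mutator mouse 248 had 91219204 gene counts against 30449029 listed aligned reads, which is 3.00 counts per listed read where the other 10 mice had 0.744 to 0.775. Control mouse 246, the smallest library, had 12.2 CPM (counts per 1000000, scaled with TMM factors) of Lcn2, a gene induced in inflammation and by glucocorticoids. The other controls had 0.0320 to 0.161 CPM of Lcn2, and the mutators lay between, with 1.16 to 3.97 CPM. The number of called genes depended on single controls. Over all genes, 223 passed an adjusted p of 0.05 with all mice, 50 without the WT/D257A mouse 237 and 412 without mouse 205, the largest library. Markers of the labelled tissue were present in every mouse, with 719 to 1016 CPM of Slc17a7, the vesicular glutamate transporter of cortical neurons.

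Of the 34 genes, 33 passed the filter on low counts and were tested among 17983 genes. The remaining gene was Epo, whose counts were too low. Igfbp3 was the single member called at an adjusted p under 0.05 (edgeR quasi-likelihood test with Benjamini-Hochberg adjustment over all genes tested), and it was higher in the mutators. Over all genes tested 1.24% were called in either direction and 0.439% as higher. Without adjustment, 8 members had a p under 0.05 and were higher in the mutators, where 7.18% of all genes were, and 1 member, Vhl, was lower, where 8.58% of all genes were. The 8 members belonged to the hypoxia-induced genes. The log2 fold change was above 0 in 26 members and below 0 in 7, where 50.4% of all genes tested were above 0. Its median was 0.076 against 0.0014 over all genes tested. Within 0.2 log2 units of 0 lay 27 of the 33 (81.8%), close to the 79.6% of all genes tested.

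Over the 11 fits without 1 mouse, 6 (without control mouse 246, where 5.6% of all genes were) to 10 members (without mutator mouse 217, where 7.52% were) were higher at an unadjusted p under 0.05, and 1 was lower, or 2 without mutator mouse 207 (9.26% of all genes). The log2 fold change was above 0 in 23 (without control mouse 239 or mutator mouse 249) to 27 members (without mutator mouse 236). Over these fits, 50.1% to 51.1% of all genes were above 0. The median moved most without the WT/D257A control 237, to 0.040, and was highest at 0.097 without control mouse 205. The call of Igfbp3 was lost without control mouse 237, 239 or 246 and without mutator mouse 236. DESeq2 called 5 members, Igfbp3, Angptl4, Bnip3, Vhl and Ankrd37, where it called 3.7% of all genes that it adjusted.

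**Figure D1:**
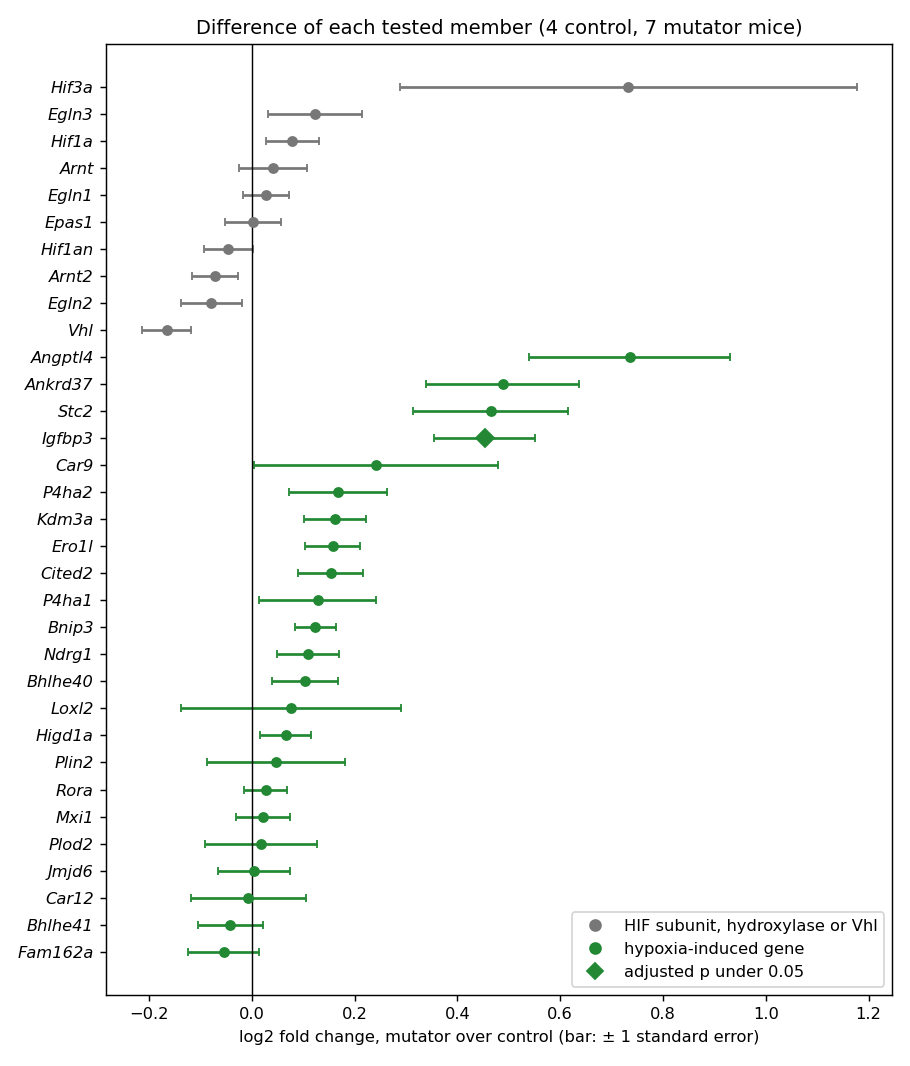
Log2 fold change of the 33 tested members, mutator over control, on the x axis, with bars of 1 standard error from the edgeR fit (4 control and 7 mutator mice). Grey points are HIF subunits, hydroxylases and Vhl, green points are hypoxia-induced genes, and the diamond marks Igfbp3, the member with an adjusted p under 0.05. The green points lie mostly to the right of 0, while the grey points spread around 0 apart from Hif3a, whose bar is the widest.

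Levels of the members spanned a wide range. Per kilobase of exon, Arnt2 was the most abundant in the controls (66.5 CPM per kb), followed by Bnip3 (44.7), Bhlhe40 (36.5), Higd1a (31.9) and Epas1 (30.6). Epas1 was 2.10 ± 0.30 times as abundant as Hif1a per kilobase in the controls and 1.98 ± 0.19 times in the mutators (SD, n = 4 and 7, exact permutation test, two-sided p = 0.448). Arnt2, the beta subunit of neurons, was 11.0 ± 0.73 times as abundant as Arnt in controls and 10.2 ± 1.3 times in mutators (exact permutation p = 0.327). Egln1 was 7.71 ± 1.0 and 7.15 ± 0.55 times as abundant as Egln3 (exact permutation p = 0.309). None of these 3 ratios differed beyond the spread between mice (Benjamini-Hochberg adjusted exact permutation p = 0.448 for each). At the low end were Angptl4 (0.547 CPM per kb in controls), Stc2 (0.492), Loxl2 (0.387), Car9 (0.298) and Epo (0.00118).

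**Figure D2:**
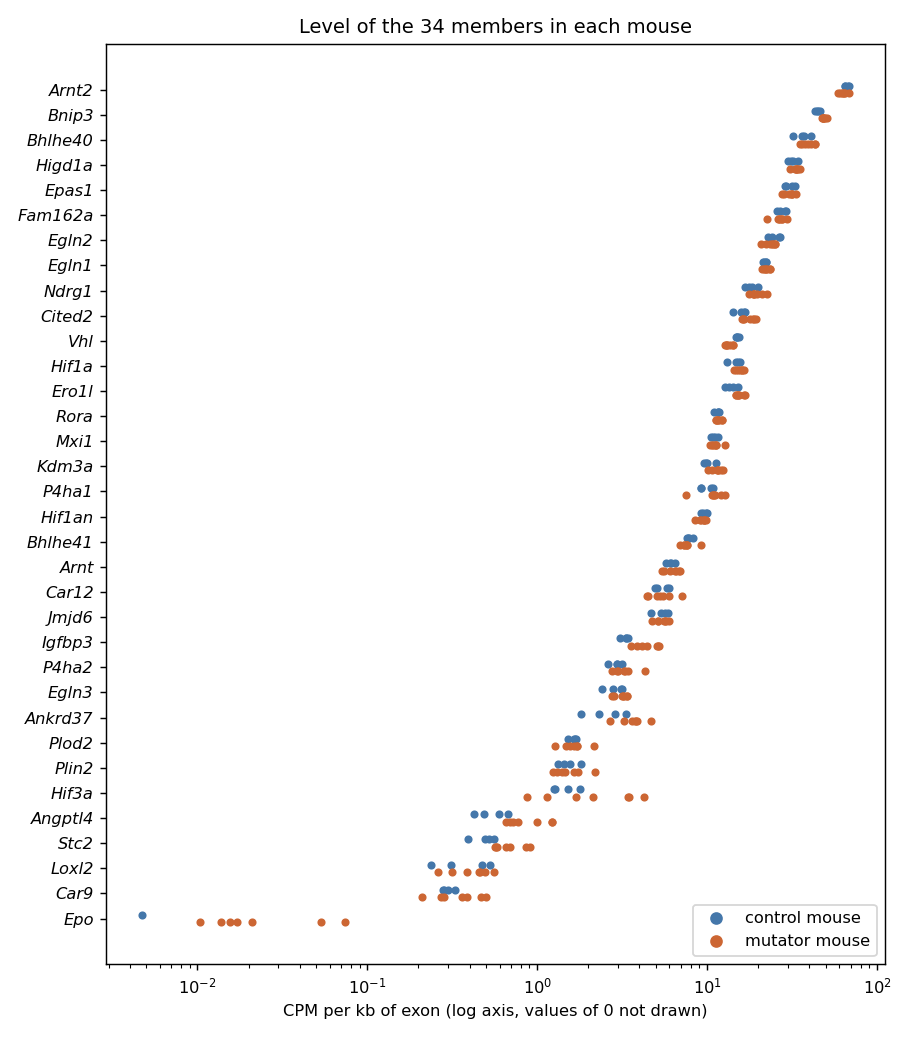
Level of the 34 members in each mouse, as CPM per kb of exon on a log axis, in the order of the control mean (blue, 4 control mice, and orange, 7 mutator mice). Control levels run from 66.5 CPM per kb for Arnt2 to 0.298 for Car9 among the tested members, and the group difference is small beside the distance between genes for most of them. Epo is drawn only where a mouse had a count.

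HIF binds a core of the letters ACGTG or GCGTG, and the windows of 250 bases upstream of the start sites listed by RefSeq (GRCm38.p6) were searched for these letters on both strands. Windows were found for 28 of the 34 members. ACGTG was in a window of 16 members (57.1%), against 18.5% of all 27025 genes with a window and 23.8% of the 11447 such genes that were also tested. GCGTG was in 19 members (67.9%), against 30.9% of all genes and 46.7% of the tested ones, and either core was in 24 members (85.7%) against 41.5% and 57.9%. The palindrome CACGTG, an E-box that contains ACGTG, was in 4 members (14.3%) against 6.86% and 9.36%. Base composition differs between promoters and was not taken into account, so the shares are a description. The windows of 4 members whose values are described below are given 5′ to 3′ on the strand of the gene, with each core, or its reverse complement CACGT or CACGC, in capitals. Igfbp3 is shown as the called gene (chr11:7213924-7214173, minus strand), Bnip3 for its E-box with further cores beside it (chr7:138909507-138909756, minus strand), Ankrd37 for a core close to the start site (chr8:45999851-46000100, minus strand) and Hif3a as the alpha subunit that varied most between mice (chr7:17062428-17062677, minus strand).
Igfbp3: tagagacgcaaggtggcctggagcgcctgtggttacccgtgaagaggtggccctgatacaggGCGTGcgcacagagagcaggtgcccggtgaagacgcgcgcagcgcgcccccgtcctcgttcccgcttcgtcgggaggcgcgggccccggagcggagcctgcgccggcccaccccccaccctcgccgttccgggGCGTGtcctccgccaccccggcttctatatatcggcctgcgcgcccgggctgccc
Bnip3: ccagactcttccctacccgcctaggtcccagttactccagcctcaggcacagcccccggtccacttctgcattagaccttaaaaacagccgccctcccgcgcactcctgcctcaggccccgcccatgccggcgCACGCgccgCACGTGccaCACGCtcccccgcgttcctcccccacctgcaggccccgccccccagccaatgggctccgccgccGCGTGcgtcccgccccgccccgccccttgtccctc
Ankrd37: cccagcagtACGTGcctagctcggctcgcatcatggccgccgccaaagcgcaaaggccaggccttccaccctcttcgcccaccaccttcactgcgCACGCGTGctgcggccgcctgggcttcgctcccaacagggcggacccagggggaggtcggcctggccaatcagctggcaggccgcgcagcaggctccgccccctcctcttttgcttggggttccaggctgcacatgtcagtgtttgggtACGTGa
Hif3a: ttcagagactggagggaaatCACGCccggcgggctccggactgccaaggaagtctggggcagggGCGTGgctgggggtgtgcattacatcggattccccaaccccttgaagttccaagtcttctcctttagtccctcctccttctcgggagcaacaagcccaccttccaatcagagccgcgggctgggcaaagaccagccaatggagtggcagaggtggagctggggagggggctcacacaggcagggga

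Among the 10 genes of the HIF pathway itself, none was called and the median log2 fold change was 0.015. At an unadjusted p under 0.05 (edgeR), 1 of the 10, Vhl, was lower, where 8.58% of all genes tested were. DESeq2 called Vhl alone, where it called 3.7% of all genes that it adjusted. Hif1a, the widely expressed alpha subunit, had 90.1, 77.3, 91.9 and 87.3 CPM in control mice 205, 237, 239 and 246. In the mutators it ranged from 84.7 over a median of 92.1 to 96.8 CPM, with a log2 fold change of 0.08 ± 0.05 (SE, edgeR adjusted p = 0.485). The groups overlapped, and the lowest value was that of the WT/D257A control.

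Epas1 (HIF2-alpha), abundant in vessels and astrocytes, had 152, 175, 154 and 169 CPM in the controls. Its mutator values ran from 146 over a median of 166 to 178 CPM. The mutator mean of 162 ± 10.9 CPM and the control mean of 162 ± 11.1 CPM (SD, n = 7 and 4) were nearly equal, and the log2 fold change was 0.00 ± 0.05 (SE, edgeR adjusted p = 0.993).

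Hif3a, an alpha subunit with isoforms that restrain the others, behaved differently from mouse to mouse. The 4 controls had 8.48, 10.1, 12 and 8.54 CPM. In the mutators the lowest value was 5.83, the median 14.2 and the highest 28.4 CPM, and the difference was not called (log2 fold change 0.73 ± 0.44 SE, edgeR adjusted p = 0.470). Mice 207 (28.4 CPM), 249 (23.3) and 236 (23.1) stood well above the highest control, mouse 240 (14.2) was slightly above it, mouse 248 (11.4) lay among the controls, and mice 211 (7.72) and 217 (5.83) were below all of them. The SD was 8.69 CPM in mutators and 1.66 in controls. The exon bins, which hold the same reads, had the same 3 mice on top. Of 26 Hif3a bins, 26 were above the highest WT/WT mouse in mouse 249, 25 in mouse 207 and 24 in mouse 236, but 16 in mouse 240, 12 in 248, 5 in 217 and 2 in 211. Hif3a lies on chromosome 7 (17616856 to 17647776, minus strand, mm9).

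The beta subunits differed little between the groups. Arnt had 51.8, 48.9, 45.6 and 48.1 CPM in controls and 43.1 to 55.6 CPM (median 51.4) in mutators, with a log2 fold change of 0.04 ± 0.07 (SE, edgeR adjusted p = 0.814). Arnt2 had 390, 412, 402 and 389 CPM in controls and 355 to 412 CPM (median 378) in mutators, with a log2 fold change of -0.07 ± 0.04 (SE, edgeR adjusted p = 0.459). The groups overlapped for both genes.

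The hydroxylases that sense oxygen also overlapped between the groups. Egln1, the main prolyl hydroxylase, had 76.3, 78.1, 74.9 and 78.4 CPM in controls and 73.9 to 82.9 CPM (median 78.3) in mutators. Egln2 had 63.6, 75.2, 67.2 and 74.1 CPM in controls and 57.9 to 70.6 CPM (median 67.8) in mutators. Their log2 fold changes were 0.03 ± 0.04 and -0.08 ± 0.06 (SE, edgeR adjusted p = 0.814 and 0.553). Egln3, itself strongly induced by HIF, had 8.41, 6.42, 7.48 and 8.25 CPM in controls and 7.33 to 9.04 CPM (median 8.55) in mutators. It differed by a log2 fold change of 0.12 ± 0.09 (SE, edgeR adjusted p = 0.547). Hif1an, the asparaginyl hydroxylase, had 65.8, 61.2, 62.6 and 64.7 CPM in controls and 56.4 to 65.0 CPM (median 63.0) in mutators, a log2 fold change of -0.05 ± 0.05 (SE, edgeR adjusted p = 0.688).

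Vhl, the substrate-binding subunit of the ligase that marks hydroxylated HIF alpha for degradation, was lower in each of the 7 mutator mice than in each control. The controls had 44.6, 44.2, 44.9 and 46.4 CPM and the mutators 38.3 to 42.6 CPM, with a median of 39.4. The spread was small in both groups (control mean 45.1 ± 0.97 and mutator mean 40.2 ± 1.7 CPM, SD, n = 4 and 7). The log2 fold change was -0.17 ± 0.05 (SE) with an unadjusted p of 0.00231 and an adjusted p of 0.0861 by edgeR, and an adjusted p of 0.0215 by DESeq2. Groups that do not overlap were found in this direction for 1.42% of all genes tested, and without mutator mouse 207 for 2 members, Vhl and Bhlhe41, and 2.1% of all genes. Over the 11 fits that each left out 1 mouse, it ranged from -0.18 to -0.15 on the log2 scale, with edgeR adjusted p-values of 0.0594 to 0.246. Vhl lies on chromosome 6 (113573953 to 113581627, plus strand, mm9).

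Among the 24 hypoxia-induced members, 23 were tested. The log2 fold change was above 0 in 20 and below 0 in 3, with a median of 0.11, where 50.4% of all genes tested were above 0. In 3 genes (Igfbp3, Bnip3 and Stc2) every mutator mouse was higher than every control, which was the case for 1.2% of all genes tested. Without control mouse 205 there were 5 such members, Ero1l and Kdm3a being added, and 3.2% of all genes. Igfbp3, a secreted protein that binds insulin-like growth factors, rose 1.37-fold. It had 10.4, 10.4, 9.57 and 10.7 CPM in controls and 11.1 to 16.2 CPM (median 13.8) in mutators. The log2 fold change was 0.45 ± 0.10 (SE, edgeR adjusted p = 0.0263). The highest mutators were mice 236, 207 and 249, and mouse 217 was closest to the controls. Without mouse 237, 239, 246 or 236 the adjusted p was 0.113, 0.0902, 0.0609 or 0.0506, and the log2 fold change stayed between 0.42 and 0.50 over all mice left out in turn. Igfbp3 lies on chromosome 11 (7106089 to 7113926, minus strand, mm9).

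Bnip3, a mitochondrial outer membrane protein that acts in mitophagy, was higher by little but without overlap. The controls had 102, 98.0, 100.0 and 105 CPM and the mutators 108 to 114 CPM, with a median of 109.6. The log2 fold change was 0.12 ± 0.04 (SE), with an adjusted p of 0.127 by edgeR and 0.0258 by DESeq2. Copies of parts of the Bnip3 transcript, at up to 98.3% identity over 858 bases, lie on chromosomes 14 and 3 of mm9, so its counts are uncertain. Bnip3 lies on chromosome 7 (146082519 to 146101202, minus strand, mm9).

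Stc2, a secreted glycoprotein (chromosome 11, 31257307 to 31270074, minus strand, mm9), had 2.89, 2.56, 2.71 and 2.04 CPM in controls. In mutators it ranged from 2.91 over a median of 3.39 to 4.68 CPM, and the log2 fold change was 0.46 ± 0.15 (SE, edgeR adjusted p = 0.127, DESeq2 adjusted p = 0.0562). The groups were parted by a narrow gap, between control mouse 205 and mutator mouse 211, and mice 249 and 248 were the highest.

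Angptl4, a secreted inhibitor of lipoprotein lipase (chromosome 17, 33910695 to 33918520, minus strand, mm9), had the largest log2 fold change of the tested members, 0.73 ± 0.20 (SE), just above that of Hif3a and with a smaller error. It was low, with 1.60, 1.40, 1.97 and 2.22 CPM in controls and 2.16 to 4.04 CPM (median 2.53) in mutators. Mice 207, 236 and 249 were the highest, and mouse 240 lay below the highest control, so the groups overlapped by that mouse. The adjusted p was 0.0681 by edgeR, 0.0117 by DESeq2 and 0.0391 by edgeR without a filter on low counts.

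Ankrd37, an ankyrin repeat protein (chromosome 8, 47082256 to 47085221, minus strand, mm9), had 4.03, 3.22, 4.66 and 2.54 CPM in controls. The mutators had 3.77 to 6.54 CPM with a median of 5.29, and the log2 fold change was 0.49 ± 0.15 (SE), with an adjusted p of 0.108 by edgeR and 0.0340 by DESeq2. Mice 217 and 249 lay below the highest control. The annotation lays Ufsp2 and Lrp2bp over Ankrd37 on the other strand, and these had log2 fold changes of 0.07 ± 0.05 and -0.06 ± 0.28 (SE).

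**Figure D3:**
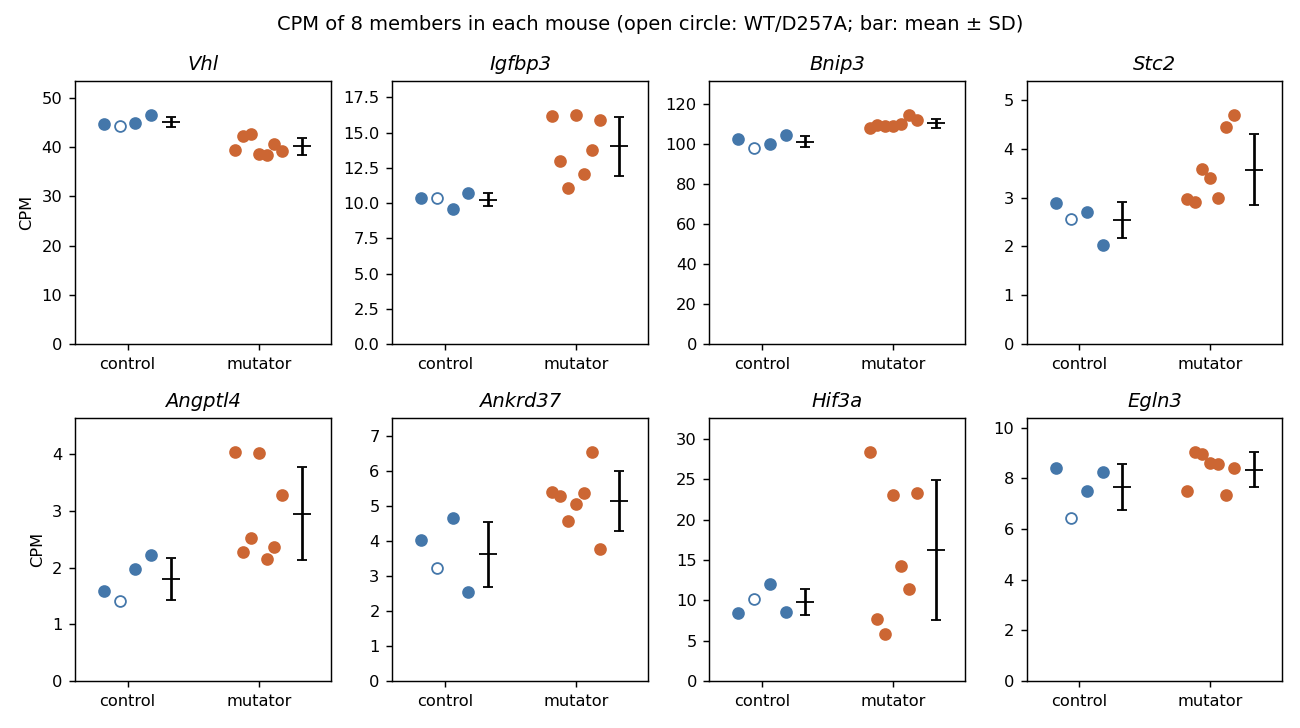
CPM in each mouse for 8 members, with group means ± SD (4 control mice in blue, with the WT/D257A mouse as an open circle, and 7 mutator mice in orange). Vhl, Igfbp3, Bnip3 and Stc2 have groups that do not overlap, Hif3a has 3 mutators far above the controls and 2 below them, and Egln3 overlaps in part, with 5 of 7 mutators above the highest control.

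The other 3 members with an unadjusted p under 0.05 differed by 1.11-fold to 1.12-fold. Ero1l, the oxidase that forms disulfides in the endoplasmic reticulum, had 59.8 ± 4.6 CPM in controls and 66.7 ± 3.1 CPM in mutators (SD, n = 4 and 7), with an edgeR adjusted p of 0.143 and a copy of 99.6% identity over 2380 bases on chromosome 7 of mm9 that leaves its counts uncertain. Kdm3a, a histone H3 lysine demethylase, had 50.5 ± 3.8 and 56.5 ± 4.0 CPM (edgeR adjusted p = 0.184). Cited2, which competes with HIF for its coactivators, had 31.2 ± 2.2 and 34.8 ± 2.7 CPM (edgeR adjusted p = 0.234). All 3 overlapped between the groups.

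The members of matrix formation showed no call. The collagen prolyl hydroxylase subunits P4ha1 and P4ha2 had log2 fold changes of 0.13 ± 0.11 and 0.17 ± 0.10 (SE). P4ha1 was lowest of all mice in mutator mouse 207 (31.0 CPM) and P4ha2 highest in mutator mouse 249 (27.0 CPM). Plod2, a collagen lysyl hydroxylase, differed by 0.02 ± 0.11 and Loxl2, a collagen cross-linking oxidase with a short near-identical stretch elsewhere in the genome, by 0.08 ± 0.21.

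The carbonic anhydrases, mitochondrial and metabolic members were likewise not called. Car9, the usual carbonic anhydrase marker of hypoxia, rested on 18 to 93 counts a mouse and had 0.687 ± 0.054 CPM in controls and 0.815 ± 0.25 CPM in mutators (SD, n = 4 and 7), which differed by 0.24 ± 0.24 on the log2 scale (SE, edgeR adjusted p = 0.667). Car12 differed by -0.01 ± 0.11 on the log2 scale. The mitochondrial proteins Higd1a and Fam162a had log2 fold changes of 0.07 ± 0.05 and -0.05 ± 0.07, and the counts of Higd1a are uncertain for a copy of 99.4% identity over 462 bases. Plin2, the coat protein of lipid droplets, differed by 0.05 ± 0.13.

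The regulators among the induced genes were not called either. Bhlhe40 and Bhlhe41, repressors that also act in the circadian clock, differed by 0.10 ± 0.06 and -0.04 ± 0.06 on the log2 scale, and Rora, a nuclear receptor of the clock, by 0.03 ± 0.04. Mxi1, an antagonist of Myc, differed by 0.02 ± 0.05, Jmjd6, a dioxygenase of the JmjC family, by 0.00 ± 0.07, and Ndrg1, a stress-response gene that is prominent in myelinating cells, by 0.11 ± 0.06 (edgeR adjusted p = 0.387). Each of these 6 genes overlapped between the groups.

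Epo, which encodes erythropoietin, was close to the limit of detection. Of the 4 controls, mouse 205 had a single count and the others none, which allows up to 0.0687, 0.0482 and 0.106 CPM in mice 237, 239 and 246 (3 counts of each library, counting error only). Every mutator had a count, 26 in all, and mice 248 and 207 held most of them with 0.129 and 0.0931 CPM. Summed over the mice and per total count, mutators held 15.7 times the share of controls (exact 95% interval of the ratio 2.58 to 645, counting error only). The other 5 mutators, with 0.0181 to 0.0364 CPM, lay below what the controls without a count allow. A difference between these mutators and those controls was therefore not detectable at this depth. Control mouse 205, with 0.00818 CPM, was below every mutator. An exact permutation test over the 330 assignments of all mice gave p = 0.00606, but it takes each count of 0 as a level of 0. The annotation lays Gnb2, Pop7 and Gigyf1 within or across the span of Epo, Gnb2 with 219 CPM in controls and 199 CPM in mutators. Whether their exons overlap those of Epo was not examined, and the part of their reads in the Epo counts was not tested. Mutator mouse 248, with the most Epo counts, is the library whose counts exceeded its listed reads.

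**Figure D4:**
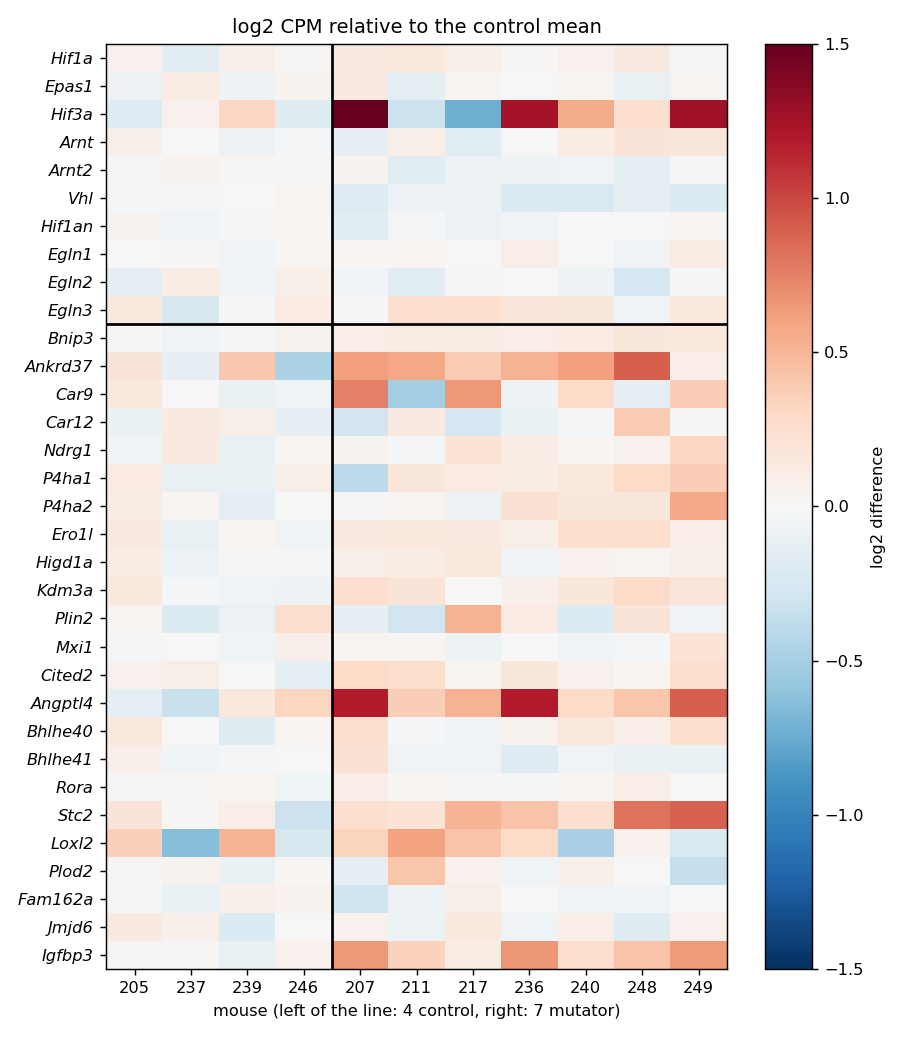
Log2 CPM of the 33 tested members in each mouse relative to the control mean, with control mice left and mutator mice right of the vertical line, and HIF subunits and sensors above the horizontal line. The median over the members lay between 0.042 and 0.10 in each mutator and between -0.022 and 0.051 in each control, and single rows such as Hif3a and Angptl4 carry the strongest colours.

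Taken mouse by mouse, the members were above the control mean in 20 to 23 of 33 cases in every mutator. Control mouse 205, the largest library, reached 22, so that this number did not part the groups. The largest medians were those of mutator mice 249 (0.10) and 207 (0.089), which with mouse 236 were also the 3 highest in Hif3a. The median of mouse 236 was lower (0.050), just under that of control mouse 205 (0.051). Mice 207, 236 and 249 were singled out after the values of Hif3a had been seen. The same 3 mice were the highest mutators in 2 of the 32 other members, Angptl4 and Igfbp3 (6.25%), and in 4.82% of all genes tested.

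Among 14 genes induced by glucocorticoids, these 3 mice were the highest mutators in 7, including Fkbp5, a chaperone of the glucocorticoid receptor, Sgk1, a kinase, and Arrdc2. Fkbp5 had 37.5, 39.8, 40.5 and 39.4 CPM in controls and 80.3, 67.1 and 62.6 CPM in mice 249, 207 and 236, with 35.5 to 54.5 CPM in the other 4 mutators. The log2 fold change was above 0 in 12 of the 14 genes and below 0 in 2, with a median of 0.23, where 50.4% of all genes tested were above 0. None of the 14 was called by edgeR, and DESeq2 called Sgk1, beside 3.7% of all genes that it adjusted. At an unadjusted p under 0.05 (edgeR), 3 were higher, where 7.18% of all genes tested were. Among them were Sgk1 and Errfi1 (edgeR adjusted p = 0.123 and 0.233). Sgk1 was higher in every mutator than in every control, as were 1.2% of all genes tested. The same 3 mice were also the highest mutators in 7 of the 19 genes set apart, Slc2a1 and 6 glycolytic enzymes (Hk1, Gpi1, Aldoa, Gapdh, Pgam1 and Eno1). Slc2a1 was above the controls in each of them (124, 143 and 187 CPM in mice 207, 236 and 249 against 91.0 to 106). Hk1, Aldoa, Gapdh and Eno1 lay within the control range in each of them. In mouse 236, Gpi1 was above that range (615 against 524 to 594 CPM) and Pgam1 just under it. The glucocorticoid-induced genes and the genes set apart were the lists with the highest shares of those examined. The others had 2 of 26 partners and relatives of the pathway, 2 of 29 further hypoxia-induced genes, 1 of 15 clock genes, 1 of 6 neuronal genes, 1 of 5 genes of meninges and fibroblasts, and 0 in the other cell type lists. The part of these genes in the values of Hif3a, Angptl4 and Igfbp3 was not tested.

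**Figure D5:**
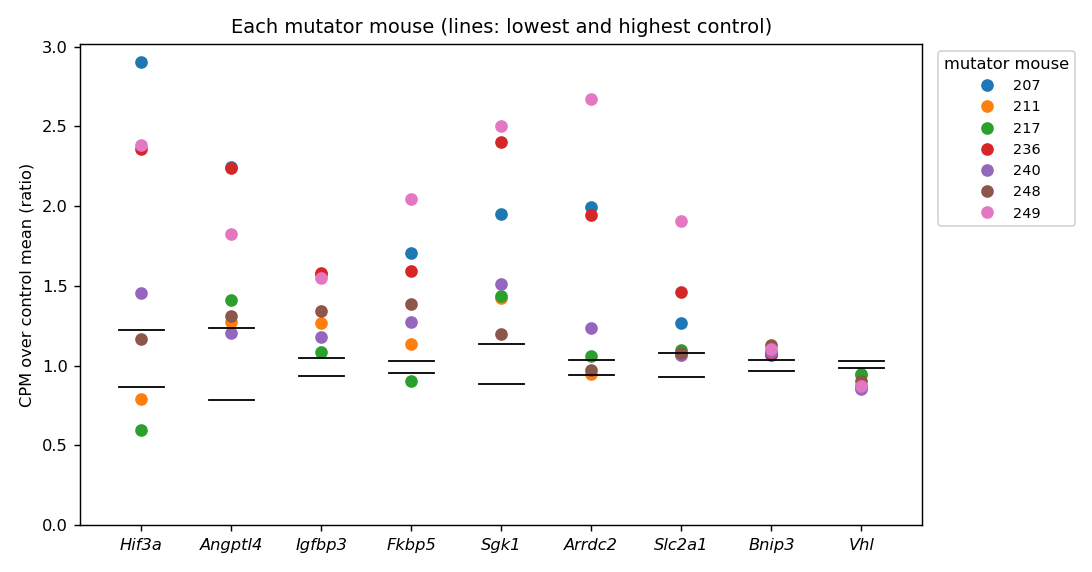
CPM of each mutator mouse as a ratio to the control mean, from left to right for the members Hif3a, Angptl4 and Igfbp3, the genes Fkbp5, Sgk1, Arrdc2 and Slc2a1 from outside the members, and the members Bnip3 and Vhl, with lines at the lowest and highest control. Mice 207, 236 and 249 are the top 3 in the first 7 genes but not in Bnip3 and Vhl, where the 7 mutators lie close together. These 3 mice were picked from Hif3a. The genes drawn after it, up to Slc2a1, are among those found to share its top 3, so their agreement was fixed by the choice.

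Exon usage inside the members did not differ detectably. Exon bins could be compared between 7 mutators and 3 WT/WT mice, since the WT/D257A mouse had no exon counts here. Of 422 tested bins in 32 members, none was called by edgeR's diffSpliceDGE, where 49 of 206930 bins (0.0237%) were called over all genes, and limma's diffSplice, which called 25 bins over all genes, also called none in the members. At an unadjusted p under 0.05 there were 3 bins (0.711%, against 1.90% of all bins), which lay in Hif1a, Ero1l and Stc2. The Hif1a bin held 2.25% of the gene's bin counts in WT/WT mice and 1.7% in mutators, and its adjusted p was 1.00.

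Other genes of the pathway were read from lists of the same kind, beside the 1.24% of all genes tested that edgeR called and the 50.4% above 0. The tested partners and relatives numbered 26 (elongins and Cul2 of the Vhl ligase, coactivators, chaperones, PAS family proteins). Of these, 12 were above 0 and 14 below, and none was called by edgeR or DESeq2. At an unadjusted p under 0.05 (edgeR), 3 were higher and 2 lower, where 7.18% and 8.58% of all genes tested were. The lowest p-values were those of Sim1 (0.521 ± 0.40 and 1.21 ± 0.26 CPM, edgeR adjusted p = 0.174) and the coactivator Ep300 (102 ± 5.5 and 110 ± 3.5 CPM, edgeR adjusted p = 0.233).

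Of 29 further hypoxia-induced genes 19 were above 0 and 10 below, with 1 called in each direction. At an unadjusted p under 0.05 (edgeR), 5 were higher and 4 lower, where 7.18% and 8.58% of all genes tested were. Tfrc, the transferrin receptor that is also controlled by iron, rose (log2 fold change 0.53 ± 0.09 SE, edgeR adjusted p = 0.0174), and the growth factor Tgfa fell by 0.23 on the log2 scale (edgeR adjusted p = 0.0364). The median log2 fold change was 0.068 in this list and -0.0036 in the partners and relatives.

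Of the 19 genes set apart, Adm and Vegfa rose by log2 fold changes of 1.10 ± 0.21 and 0.38 ± 0.08 (SE, edgeR adjusted p = 0.0134 and 0.0266), and 13 of the 19, which are mostly glycolytic enzymes, were below 0. Among 15 clock genes, listed because Bhlhe40, Bhlhe41 and Rora act there, Dbp was the single one called and fell by 0.37 on the log2 scale (edgeR adjusted p = 0.0241).

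Markers of cell types were read beside the members. Over all genes tested, edgeR called 1.24%, and 50.4% were above 0. At an unadjusted p under 0.05 (edgeR), 7.18% were higher and 8.58% lower. DESeq2 called 3.7% of all genes that it adjusted. In the vessel wall, 9 endothelial genes had no call by edgeR (4 at an unadjusted p under 0.05) and 1, Flt1, by DESeq2, with Flt1 at a log2 fold change of 0.36 ± 0.09 and Tie1 at -0.29 ± 0.10 (SE, edgeR adjusted p = 0.0615 and 0.143), and the summed level was 237 ± 24 CPM in controls and 249 ± 18 CPM in mutators (SD, most abundant gene Flt1). Of 6 mural cell genes, 4 were above 0 and 2 below (2 at an unadjusted p under 0.05, both higher), and Abcc9 rose (0.64 ± 0.08, edgeR adjusted p = 4.33e-04), while the sum was 194 ± 7.2 and 206 ± 13 CPM (most abundant gene Rgs5). Hemoglobin genes and Alas2, which mark blood, were above 0 in 5 of 5 genes with no call by edgeR or DESeq2 and 0 at an unadjusted p under 0.05 (Alas2 and Hbb-b2 with adjusted p = 0.334 and 0.405 by edgeR). The blood sum was 66.5, 103, 57.5 and 198 CPM in controls 205, 237, 239 and 246 and 89.7 to 256.9 CPM (median 128) in mutators, mostly from Hbb-b1, with mouse 207 the highest.

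The neural and other lists gave no call by edgeR either, while DESeq2 called Slc1a2, Mag and Clic6, beside 3.7% of all genes that it adjusted. At an unadjusted p under 0.05 (edgeR), 7.18% of all genes tested were higher and 8.58% lower. The microglial, oligodendrocyte and neuronal genes counted below at that threshold were all lower. All 6 microglial genes were below 0 (4 at an unadjusted p under 0.05, lowest for Cx3cr1 and Csf1r, sum 229 ± 23 and 205 ± 12 CPM), and 4 of 6 oligodendrocyte genes were below 0 (3 at an unadjusted p under 0.05, lowest for Mag and Mog, sum 5297 ± 307 and 5355 ± 655 CPM, mostly Mbp). Neuronal genes were below 0 in 5 of 6 (2 at an unadjusted p under 0.05, lowest for Slc17a7 and Syn1). Their sum was 6025 ± 187 and 5800 ± 151 CPM (most abundant gene Snap25). Astrocyte genes were below 0 in 4 of 6 (at an unadjusted p under 0.05 Slc1a2 was lower and Gfap higher, sum 4086 ± 144 and 3853 ± 144 CPM). Choroid plexus genes were above 0 in 4 of 6 (at an unadjusted p under 0.05 Clic6 and Otx2 were higher and Folr1 lower, sum 606 ± 80 and 667 ± 69 CPM, mostly Ttr) and those of meninges and fibroblasts in 3 of 5 (1 at an unadjusted p under 0.05, lowest for Slc6a13 and Col1a1, sum 103 ± 8.9 and 106 ± 8.3 CPM). No marker was at 0 in all mice, and the part of these markers in the differences of the members was not tested.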

How the data were processed

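RNA of 11 cerebra was made into unstranded, poly(A)-selected paired-end libraries. Per the labels and the study's methods, the authors aligned reads to mm9 with TopHat2 2.0.6 and Bowtie2 2.0.2.0, counted them with HTSeq 0.5.3p9 on Ensembl genes and deposited raw counts per gene (11 mice) and per exon bin (10 mice). Their read totals were used only to compare depths. Their comparison tables hold the fold changes and p-values of their own tests and were not used.

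A robust quasi-likelihood test in edgeR 4.0.16 (R 4.3.3), after filterByExpr and TMM scaling, compared the gene counts of 7 mutators with those of 4 controls, with Benjamini-Hochberg adjustment over all 17983 genes tested and a threshold of 0.05. Each standard error was derived from the coefficient and its F statistic. Exon bins were tested with diffSpliceDGE, and reads in no bin (20.6% to 23.4%) were left out. Alternatives were DESeq2 1.42.0, limma 3.58.1, RLE and upper-quartile factors, other filters, log2 total count as a covariate, mitochondrial genes left out and each mouse left out in turn. The counts of members by sign, unadjusted p and overlap without single mice were added after seeing the data. The fits were tested on simulated data. Near-identical copies (97% over 200 bases or more) were sought with BLAST 2.17.0, and exact tests used scipy 1.17.1. Coordinates of genes are from the GENCODE M1 annotation of mm9, a later release than the authors' Ensembl genes, and promoter windows are from RefSeq. Depths and intervals cover counting error only.

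The members and lists were chosen with earlier results of these data known. Values of the 4 controls, with the lowest, median and highest of the 7 mutators, are given for members that were called, had groups without overlap, are HIF subunits or hydroxylases, or had one of the 5 largest log2 fold changes. From other lists, called genes or the 2 with the lowest p are named, and Fkbp5, Arrdc2, Slc2a1, Lcn2, Folr1 and the glycolytic enzymes were named after their values were seen. Mice carry no shared numbers across groups, and no surrogate variables were fitted.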

Additional observations from a re-analysis of the deposited data

Results flagged for a closer look

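Of 130 groups of mice tested for a value far from the rest (the gap to the nearest mouse over the whole range of the group), 13 stood out. Chance flags about 6.5 of 130 groups, but 2 of the 13 are of Lcn2, which was named after its values were seen, so the number cannot be read against chance. In the members, P4ha1 was low in mutator mouse 207 (31.0 CPM against 43.9 to 52.6, gap 0.596 of the range), P4ha2 was high in mutator mouse 249 (27.0 against 17.2 to 21.3 CPM, 0.582), Mxi1 was high in the same mouse (71.1 against 58.6 to 63.5 CPM, 0.609) and Bhlhe41 was high in mutator mouse 207 (57.8 against 43.1 to 47.6 CPM, 0.697). Rora was low in control mouse 246 (144 against 152 to 153 CPM, 0.854), and Epo had its single control count in mouse 205 (1.0).

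Outside the members, Lcn2 was high in control mouse 246 (12.2 against 0.0320 to 0.161 CPM, 0.989) and in mutator mouse 236 (3.97 against 1.16 to 2.26 CPM, 0.608), and Ep300 was low in mutator mouse 217 (103 against 109 to 113 CPM, 0.605). Gfap was high in mutator mouse 217 (311 against 226 to 249 CPM, 0.736), Clic6 was low in mutator mouse 207 (14.5 against 18.9 to 22.2 CPM, 0.573) and Otx2 was low in mutator mouse 248 (3.94 against 5.29 to 5.92 CPM, 0.681). The gene counts of mutator mouse 248 came to 3.00 per listed aligned read against 0.744 to 0.772 in the other mutators (0.988).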

How the results depend on the processing

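Calls depended on the mice and the tool. Over all genes, 223 were called, against 616 with DESeq2, 346 without a filter on low counts and 50 (without control mouse 237) to 412 (without control mouse 205) with each mouse left out in turn. Other mice that moved it by over 1.5 times were controls 239 (100 without it) and 246 (93) and mutators 211 (125), 236 (142), 240 (112) and 248 (130). Members called numbered 1 with edgeR, 5 with DESeq2 and 2 each without a filter (Angptl4 added) and with log2 total count as covariate (Ankrd37 added), and 0 to 1 with each mouse left out. Exon bins called over all genes numbered 49, against 25 with limma and 5 to 186 with each mouse left out, with 5 without control mouse 239, 186 without 205, 100 without mutator mouse 207, 85 without 236, 19 without 240 and 22 without 248, and none lay in the members in any fit. The cause was not tested.

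Over 33 members and 18 alternatives, 560 of 594 log2 fold changes kept their direction and side of the threshold. Of the rest, 4 concerned the lost call of Igfbp3, 6 were calls gained in 4 members, and 24 changed sign, in 7 members whose log2 fold changes were near 0 and each time with a mouse left out. With each mouse left out they ranged from -0.085 to 0.040 for Car12, -0.031 to 0.040 for Epas1, -0.061 to 0.053 for Jmjd6, -0.093 to 0.25 for Loxl2, -0.0095 to 0.046 for Mxi1, -0.047 to 0.13 for Plin2 and -0.056 to 0.067 for Plod2.

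No paired analysis was possible because the numbers of the mice do not tie mutators to controls. With 4 controls, a change must be large against the spread to pass, and members under about 5 CPM (Epo, Car9, Angptl4, Loxl2, Stc2 and Ankrd37) rest on few counts in the smallest library, control mouse 246.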
